A study of Mus musculus with 18 samples.

Results

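The cells described here were picked from droplet single-cell RNA sequencing of whole mouse embryos at embryonic day 8.5 (E8.5) with 5 transcription factor genes of the intermediate mesoderm, Osr1, Lhx1, Pax8, Pax2 and Wt1. A cell was taken when it held at least 3000 mouse unique molecular identifiers (UMIs, each standing for 1 captured RNA molecule), at least 1 UMI of 3 or more of these 5 genes, and no UMI of Sox1 or Foxa2. Sox1 marks neural progenitors, and Foxa2 marks notochord, floor plate and definitive endoderm. The rule took 719 of 105556 cells, of which 298 came from wildtype (WT) embryos, 57 from Dnmt1_KO embryos, 212 from Dnmt3a_KO embryos and 152 from Dnmt3b_KO embryos. Because the 5 genes chose the cells, their levels below are a description and carry no test.

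The intermediate mesoderm is the strip between the somites and the lateral plate from which the kidney, the gonad and the adrenal cortex arise. Osr1 is switched on early and broadly along this strip, Lhx1, Pax2 and Pax8 act together when the nephric duct forms within it, and Wt1 marks the coelomic lining and later the nephron-forming mesenchyme. DNMT1 copies DNA methylation onto the new strand after replication, while DNMT3A and DNMT3B place methylation on unmethylated DNA, and promoters of many germline genes are kept silent in somatic cells by such methylation.

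Each library held the cells of 1 embryo on the 129S4/SvJae strain background, dissociated whole and sequenced with 10x Genomics 3′ chemistry. The groups were 7 WT embryos, 3 embryos labelled Dnmt1 null, 4 labelled Dnmt3a null and 4 libraries labelled Dnmt3b null, all at E8.5. Knockout and matching wildtype embryos came from matings of heterozygous parents, so every cell of a knockout embryo, extraembryonic tissue included, carried the constitutive null genotype. Genotypes had been read by PCR on ectoplacental cone tissue, and the labels did not tie a wildtype embryo to one of the 3 strains of knockout.

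Some libraries stood apart from their labels or from the rest. Dnmt3b_KO 1 and 2 shared 7493 cell barcodes, 85.7% and 85.9% of their cells, against at most 33 barcodes for any other pair, so they were counted as 1 embryo here with their counts summed. Of the selected barcodes, 10 were in both, which leaves 709 distinct selected barcodes. Dnmt3a stood at 16.9 and 7.91 CPM (UMIs of a gene per 1000000 UMIs) in the selected cells of the libraries labelled Dnmt3b_KO 11 and 12, which lay below all 7 WT embryos (31.1 to 59.4 CPM), whereas the summed library Dnmt3b_KO 1 and 2 had 40.4 CPM. The same held outside the selected cells, with 15.1 and 7.65 CPM in these libraries against 23.3 to 34.4 CPM in WT. Y-linked transcripts were present in WT 2, in all Dnmt1_KO and Dnmt3a_KO libraries and in Dnmt3b_KO 11, 1 and 2 (91.8 to 112 CPM), and at most 0.14 CPM in the others. The number of cells per library ranged from 1321 to 9849, and the median depth of a cell from 7289 to 59422 UMIs.

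The selected cells were more deeply sequenced than the other cells in all libraries but Dnmt1_KO 1. Their median depth per library lay between 26568 and 90493 UMIs, against 7273.5 to 59502 UMIs for all other cells. Because a detected UMI is what the rule asks for, depth sets how many cells it can take. Just outside the rule, 4687 cells held exactly 2 of the 5 genes with no Sox1 or Foxa2. Just inside, 585 cells held exactly 3, 134 held 4 or more and 13 held all 5. A further 306 cells had 3 or more of the genes but were left out for a UMI of Sox1 or Foxa2.

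Osr1 was found in 93.9% of the selected cells and Lhx1 in 92.5%, whereas Pax2 was found in 62.4%, Pax8 in 41.6% and Wt1 in 30.04%. Red blood cell precursors, which should lack these genes and were defined here by globin transcripts above 10% of a cell's UMIs, served as the measure of free RNA in the droplets. Of 7695 such cells, 0.79% held a UMI of Osr1, 0.49% of Lhx1, 0.35% of Pax2, 0.22% of Pax8 and 0.09% of Wt1, and none met the rule, which allows a share of up to 0.039%. Their median depth lay between 9558 and 44020 UMIs in the WT libraries, where that of the selected cells lay between 32694 and 84594. Most of the selected cells held 1 of 5 combinations of the genes. Osr1, Lhx1 and Pax2 without the others marked 231 cells, Osr1, Lhx1 and Wt1 marked 162, Osr1, Lhx1, Pax8 and Pax2 marked 103, Osr1, Lhx1 and Pax8 marked 102, and Osr1, Pax8 and Pax2 marked 40.

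**Figure D1:**
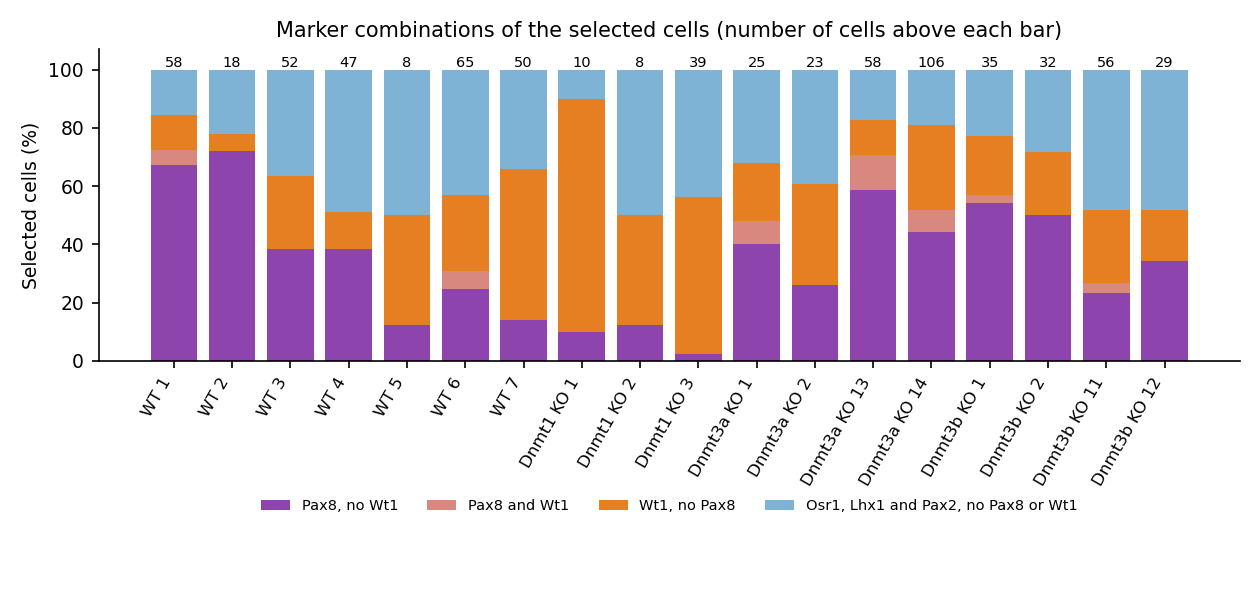
Share of the selected cells of each library that held Pax8 without Wt1, Wt1 without Pax8, both, or neither (Pax2 with Osr1 and Lhx1), as percent of the selected cells of that library, with the number of cells per library. Pax8 without Wt1 ran from 2.56% to 72.2% of a library's selected cells, and was at or under 12.5% in all 3 Dnmt1_KO embryos and in 1 WT embryo with 8 selected cells.

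Split by Pax8 and Wt1, 272 cells (37.8%) held Pax8 without Wt1, 189 (26.3%) held Wt1 without Pax8, 27 (3.76%) held both and 231 (32.1%) held neither. UMIs of genes of other tissues were also found. Sox2, a gene of neural and other epithelial progenitors, was found in 243 cells (33.8%), the epithelial genes Epcam and Cldn6 in 217 (30.2%) and 172 (23.9%), and En1, a gene of the midbrain-hindbrain boundary, in 62 (8.62%). Of the red blood cell precursors, 2.48% held a UMI of Sox2, 6.15% of Epcam, 6.33% of Cldn6 and 0.546% of En1, at a median depth of 26584 UMIs against 53355 in the selected cells, so depth differs between these shares. Per UMI, Sox2, Epcam and Cldn6 were lower in the selected cells of the WT embryos than in all other cells (32.7 against 50.1, 57.0 against 129 and 18.9 against 81.3 CPM). The rule had left out cells with Sox1 from the selected cells only. En1 was not lower, at 0 to 35.6 CPM in the selected cells of the WT embryos and 5.46 to 20.4 CPM in the others. En1 and En2 were found in 8.62% and 5.84% of all selected cells. Of cells neither selected nor red blood cell precursors, 3.96% and 2.56% held them, at a lower median depth (24236.5 UMIs). Pax2, Pax8 and Lhx1 are themselves used in that boundary, in the ear placode and in the thyroid. Doublets were taken as the highest scores at an assumed rate of 0.8% per 1000 cells. Of the 719 selected cells, 82 (11.4%) were scored so. By library this was 0% to 24.0% of the selected cells and 1.06% to 7.88% of all cells. The share was lower in the selected cells in Dnmt1_KO 1 and 2, WT 4 and WT 5 only. Without every cell holding a UMI of En1, En2, Sox2, Epcam or Cldn6, 342 cells remained (47.6%), between 17.9% and 71.9% of a library's selected cells. Each gene count given first below was repeated in these 342 cells, in the embryos of the first fit and with no minimum number of cells. This left 6 and 7 cells in Dnmt1_KO 1 and 3, and as few as 9 in a WT and 13 in a Dnmt3a_KO embryo. The 5 genes are what the rule asked for and so are no check of the label. Whether it holds for every cell was not tested, and the cells are called selected cells in what follows.

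In the pooled WT embryos the cells with Pax8 and those with Wt1 also had different levels of other genes, though the embryos gave them unequal numbers of cells. In these pools cells with Pax8 and no Wt1 had 27.7 CPM of Gata3, a regulator of nephric duct growth, against 8.78 CPM in cells with Wt1 and no Pax8. The counting intervals (95%, exact Poisson, counting error only) were 24.2 to 31.6 and 6.38 to 11.8 CPM. Ret, the duct's receptor for the growth factor GDNF, stood at 11.1 against 1.40 CPM, its co-receptor Gfra1 at 4.20 against 0.80 CPM, and the duct regulator Emx2 at 11.3 against 1.00 CPM. Gdnf itself, which nephrogenic mesenchyme is known to secrete towards the duct, was also found mainly with Pax8 (5.72 CPM, 45 UMIs) and only as 1 UMI with Wt1. Eya1, a gene of the nephrogenic mesenchyme, stood at 19.4 CPM with Pax8 against 5.79 CPM with Wt1. WT 1 carried much of this, with 38 of the 45 UMIs of Gdnf and 34.5 CPM of Ret in its 39 cells with Pax8. Within WT 3 and WT 6, which had more than 10 cells of both kinds, Gata3 stood at 20.8 and 30.5 CPM with Pax8 against 12.2 and 10.02 CPM with Wt1, and Eya1 at 23.8 and 20.1 against 4.87 and 3.01 CPM. Ret was higher with Pax8 in WT 6 (16.05 against 2.004 CPM) and not in WT 3 (3.04 against 3.65 CPM), and Emx2 was at or under 3.04 CPM in both kinds in both embryos. Of the selected cells of WT 3 and WT 6, 26.9% and 43.1% held no UMI of En1, En2, Sox2, Epcam or Cldn6. Whether the cells with Pax8 in these embryos were all nephric was not tested.

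The lateral plate genes Foxf1, Hand1 and Gata6 ran the other way, and other genes of the lateral plate are not tallied here. Foxf1, a gene of splanchnic mesoderm, stood at 154 CPM with Wt1 against 39.5 CPM with Pax8, Hand1 at 99.0 against 12.5 CPM and Gata6 at 71.0 against 16.3 CPM. Within WT 3 and WT 6 the order was the same, with Foxf1 at 114 and 150.3 against 34.0 and 43.3 CPM, Hand1 at 184 and 26.1 against 13.7 and 15.2 CPM, and Gata6 at 106 and 69.1 against 14.2 and 28.9 CPM. The 104 WT cells with Pax2 but neither Pax8 nor Wt1 stood apart from both. Pooled, they had the highest Cdx4 (211 CPM, against 83.0 and 74.2), a gene of the posterior axis, the highest Hoxb9 (123 CPM, against 64.8 and 26.1), and the highest Tcf15 and Meox1 (66.5 and 80.9 CPM), which are genes of somite-forming mesoderm. Within WT 3 and WT 6, Cdx4 stood at 219 and 282 CPM in them, at 105.4 and 81.9 CPM with Pax8 and at 67.0 and 71.1 CPM with Wt1. Hoxb9 and Tcf15 were also highest in them in both embryos, whereas Meox1 was so in WT 6 but not in WT 3 (46.5 CPM, against 49.9 CPM with Wt1). En1 was found with Pax8 (28.2 CPM) and as 0 UMIs with Wt1, which allows up to 0.74 CPM. Since all 3 sets were cut from the same cells by their own counts, these values are a description over pooled embryos with no test.

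**Figure D2:**
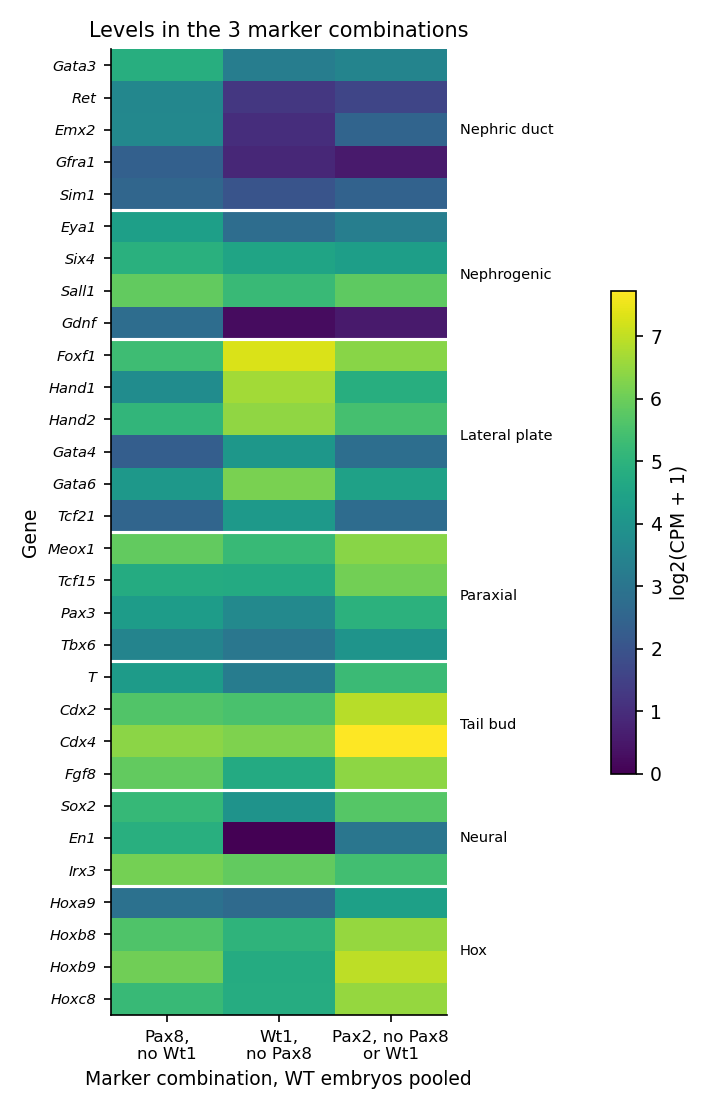
Levels in the selected WT cells pooled over 7 embryos, as log2(CPM + 1), in cells with Pax8 and no Wt1 (left), Wt1 and no Pax8 (middle) and Pax2 with neither (right), for genes of the nephric duct, nephrogenic mesenchyme, lateral plate, paraxial mesoderm, tail bud and neural tissue, and for Hox genes. Gata3, Ret and Emx2 are highest on the left, Foxf1, Hand1 and Gata6 in the middle, and Cdx4, Hoxb9 and Tcf15 on the right.

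Set against all other cells of the same WT embryos, the selected cells had higher levels of several genes that the rule had not named. Ranked by the ratio of mean CPM among genes at 20 CPM or more, the leading 15 were Grem1, Gm14226, Fgf9, Lhx1os, Hoxa5, Pcdh19, Lefty2, Rnf213, Hs3st3b1, Hoxd1, Col9a1, Arg1, Ndnf, Zfp442 and Vegfc. Grem1, an inhibitor of BMP ligands with a known part in kidney induction, ranged from 8.60 to 81.9 CPM in the selected cells of the 7 embryos and from 2.67 to 4.61 CPM in the others (ratio of means 8.76). Fgf9, a growth factor that keeps nephron progenitors, had a ratio of 6.79, and Lhx1os, transcribed opposite Lhx1, one of 5.33. Reads of Lhx1 and Lhx1os come from overlapping loci. Gm14226 stood at 52.0 to 109 CPM against 8.08 to 15.7 CPM. In 14 of these 15 genes the selected cells were higher in all 7 embryos. Lefty2, higher in 5 of 7, ranged from 0 to 141 CPM.

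Some of these genes were as high or higher in a neighbouring mesoderm. Paraxial and lateral plate cells were taken by their own markers (at least 3 of 7 and at least 3 of 5 genes), which gave 4285 and 17665 cells. The paraxial genes were Meox1, Meox2, Tcf15, Foxc2, Pax3, Tbx18 and Uncx, and the lateral plate genes Foxf1, Hand1, Hand2, Gata4 and Gata6. A further 589 cells passed both rules and entered neither class. Whether either class also held cells of other tissues that use the same genes was not tested, so each name stands for its rule. Pcdh19 stood at 53.8 CPM in the selected cells but at 67.9 CPM in paraxial cells, and Arg1 at 119 against 225 CPM. Aldh1a2, which makes retinoic acid in trunk mesoderm, stood at 113 CPM in the selected cells, 279 CPM in paraxial cells and 28.8 CPM in lateral plate cells. Rdh10, the enzyme that supplies retinaldehyde, was higher in the selected cells than in other cells of all 7 embryos (32.5 against 17.4 CPM).

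The Hox genes, whose paralogue number follows the order of their use from head to tail, split by that number. All 23 genes of paralogue groups 1 to 8 had a ratio above 1 to the other WT cells (median 2.08), and 14 were higher in all 7 embryos. Lateral plate cells stood above the selected cells for Hoxb5, Hoxc5, Hoxb6, Hoxc6, Hoxa7, Hoxb7, Hoxc8 (91.1 against 50.4 CPM) and Hoxd8, and paraxial cells for Hoxa2. The rest of the 23 were higher in the selected cells than in either class. Of the 4 genes of group 9, Hoxb9 and Hoxd9 were higher than in the other cells of all 7 embryos (89.6 against 38.7 CPM, and 16.1 against 8.90 CPM). Hoxa9 was lower in all 7 (11.1 against 17.2 CPM). Lateral plate cells had 48.0 CPM of Hoxb9, 25.7 CPM of Hoxd9, 38.4 CPM of Hoxa9 and 33.9 CPM of Hoxc9. None of the 11 detected genes of groups 10 to 13 had a ratio above 1 (median 0.12). Hoxa10, for example, stood at 0.56 against 4.69 CPM, while lateral plate cells had 18.4 CPM. A like rise in many genes of 1 cluster is not that many separate observations, since neighbouring Hox genes are transcribed together.

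**Figure D3:**
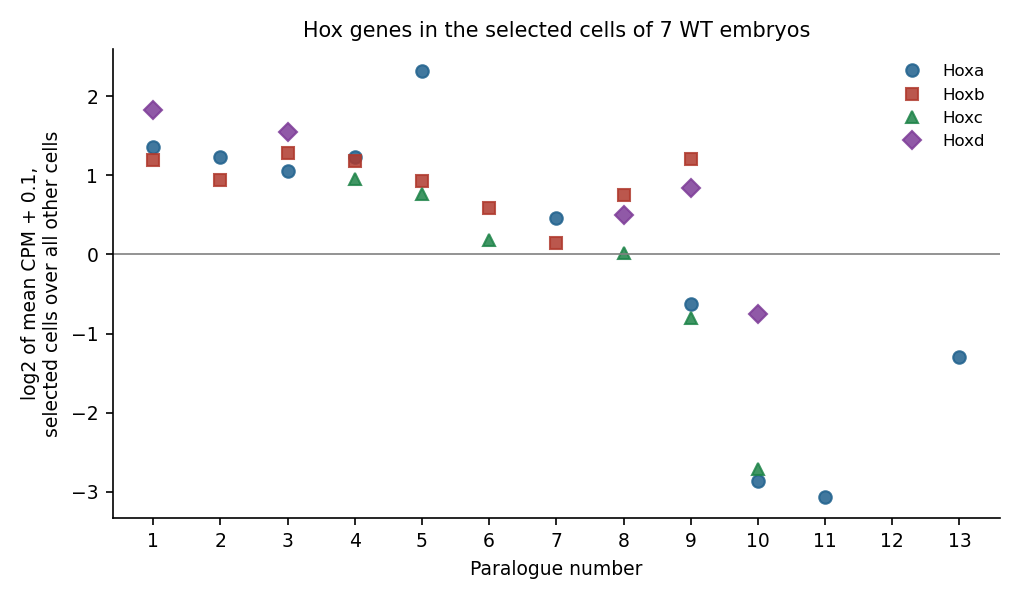
Ratio of mean level in the selected cells to that in all other cells of the 7 WT embryos, as log2 of mean CPM + 0.1 over mean CPM + 0.1, by paralogue number (1 to 13) and cluster (colour), for Hox genes with at least 1 CPM over both means. Points for groups 1 to 8 lie near or above 0, group 9 falls on both sides, and groups 10 to 13 lie below 0.

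Duct genes were low and uneven at this stage. Gata3 ranged from 5.72 to 47.8 CPM in the selected cells of the WT embryos, with WT 1 at 47.8 and the others at or under 23.7. Ret was 24.8 CPM in WT 1 and between 0 and 6.99 in the others, and Gdnf was 18.6 CPM in WT 1, 4.59 in WT 2 and at or under 0.70 in the rest. The same embryo was the highest of the WT group for Pax8 (63.5 CPM against 4.21 to 36.0) and Pax2 (59.2 against 8.43 to 17.6). Osr2, which follows Osr1 in later mesenchyme, had 0.17 CPM in the selected cells against 0.15 CPM in others. Other genes of the mesenchyme list were not low: Sall1 ranged from 45.0 to 59.7 CPM in the 7 embryos, and Cited1, a transcriptional co-regulator found in nephron progenitors, from 81.2 to 212 CPM. Cited1 was lower in the selected cells than in other cells of all 7 embryos (mean 166 against 270 CPM). It was the exception in its list. Of the 10 mesenchyme genes, 9 were higher on average in the selected WT cells than in the others, 3 of them in all 7 embryos. Of the 9 duct genes, 5 were higher on average in the selected cells, 1 of them in all 7 embryos, and 2 were lower in all 7.

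The share of an embryo's cells that met the rule did not differ between groups beyond the spread among embryos. In WT, 0.69%, 0.28%, 0.99%, 1.24%, 0.61%, 1.24% and 1.65% of the cells of embryos 1 to 7 were selected (mean 0.956% ± 0.464, SD, n = 7). In Dnmt1_KO the shares were 0.66%, 0.26% and 1.60%, in Dnmt3a_KO 13, 14, 1 and 2 they were 0.78%, 1.64%, 0.31% and 0.24%, and in Dnmt3b_KO 0.57% (11), 0.49% (12) and 0.38% (mean of 1 and 2). The Dnmt3b_KO values lay below the WT median of 0.99% but inside the WT range, and both other groups spanned nearly the whole WT range. The difference in log2 share from WT was -0.35 in Dnmt1_KO (p = 0.6), -0.61 in Dnmt3a_KO (p = 0.376) and -0.84 in Dnmt3b_KO (p = 0.15), with Benjamini-Hochberg adjusted values of 0.6, 0.564 and 0.45 (two-sided exact permutation tests over embryos, n = 3, 4 and 3 against 7). Without WT 2 the Dnmt3b_KO difference was -1.10 (exact permutation p = 0.0238). The Dnmt1_KO difference changed sign when Dnmt1_KO 2 was left out. The exact binomial interval (95%, counting error only) was 0.262% to 1.19% for the 8 of 1321 cells of WT 5, and 1.14% to 2.18% for Dnmt1_KO 3. Fewer cells of a kind and less RNA per cell cannot be told apart in such a share.

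Thinning every cell to 10000 UMIs, with shallower cells left out, lowered all shares, to 0.197% on average in WT. In the Dnmt1_KO embryos it left 0.0038%, 0.024% and 0.061%, below all 7 WT embryos (0.066% to 0.341%). In all share tests 0.5 was added to each count of selected cells before the log. The log2 difference was then -1.87 (exact permutation p = 0.0167, the smallest the design can give, adjusted p = 0.05). The thinned counts behind it were 0.05, 0.60 and 0.80 cells on average over 20 draws, so that each Dnmt1_KO share rested on less than 1 cell, as did that of WT 5 (0.60). The size of the Dnmt1_KO difference therefore depends on the added 0.5. The thinned differences of Dnmt3a_KO (-0.01, p = 1) and Dnmt3b_KO (-0.66, p = 0.2) did not pass these exact tests. Thinned to 3000 UMIs, the difference was -0.26 in Dnmt1_KO (exact permutation p = 0.55), where at most 0.05 cells per embryo were left. It was -0.34 in Dnmt3a_KO and -0.88 in Dnmt3b_KO (exact permutation p = 0.588 and 0.0833). At the full depth, in Dnmt1_KO 1, 2 and 3, Osr1 stood at 23.0, 30.4 and 27.7 CPM against 54.9 to 150 CPM in WT, and Pax8 at 1.28, 2.77 and 0.24 against 4.21 to 63.5 CPM. Lhx1, at 42.1, 33.2 and 81.8 CPM, overlapped the WT range of 49.9 to 174 CPM, and Wt1, at 12.8, 8.30 and 5.98 CPM, lay above the WT range of 0.77 to 7.26 CPM in the first 2 embryos and inside it in the third. These levels are a description, since the genes chose the cells. Pax8 was held by 10.0%, 12.5% and 2.56% of the selected cells of Dnmt1_KO 1, 2 and 3, against 12.5% to 72.4% in WT embryos. Wt1 was held by 80.0%, 37.5% and 53.8%, against 5.56% to 52.0%. Pooled over embryos, 3 of 57 Dnmt1_KO cells held Pax8 (5.26%), against 121 of 298 in WT (40.6%), and 32 of 57 held Wt1, against 80 of 298. Of the 57, 39 came from Dnmt1_KO 3. A cell without Pax8 could pass only through the other genes, so the rule ties these shares and they carry no test.

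**Figure D4:**
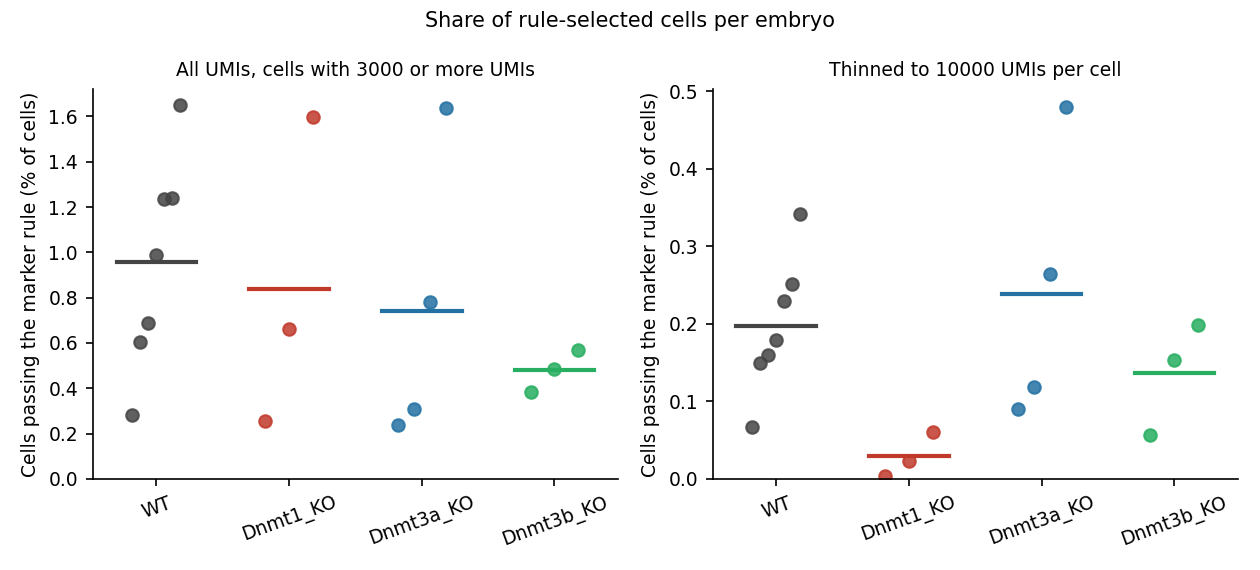
Share of cells with at least 3000 UMIs that met the rule, in percent, 1 point per embryo and a line at the group mean, with all UMIs and after thinning each cell to 10000 UMIs. With all UMIs the groups overlap; after thinning the 3 Dnmt1_KO embryos (0.0038% to 0.061%) lie under the 7 WT embryos (0.066% to 0.341%).

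To compare genes between groups, the UMIs of the selected cells were summed within each embryo and tested across embryos with edgeR's quasi-likelihood test. The 20 selected cells required were found in 5 WT, 4 Dnmt3a_KO and 3 Dnmt3b_KO embryos. Only 1 Dnmt1_KO embryo had them, so that comparison was made at 10 cells, with Dnmt1_KO 1 and 3 (10 and 39 cells) against 6 WT embryos. A gene was called at a Benjamini-Hochberg adjusted p under 0.01 and a change of at least 1 on the log2 scale. By this rule 284 of 10555 genes were called in Dnmt1_KO (2.69%), 8 of 11460 in Dnmt3a_KO (0.0698%) and 32 of 11460 in Dnmt3b_KO (0.279%). All 5 WT embryos of the last 2 comparisons lacked Y-linked transcripts while the Dnmt3a_KO embryos had them, so genotype and sex cannot be told apart in that contrast, and 6 of the 8 calls were the Y-linked Ddx3y, Eif2s3y, Kdm5d and Uty and the X-inactivation transcripts Xist and Tsix. The Dnmt1_KO embryos also had Y-linked transcripts, against 1 of the 6 WT embryos of their fit, and 2 of the 3 Dnmt3b_KO embryos had them. All 3 comparisons share WT embryos.

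The targeted genes were read first. Dnmt1 stood at 16.6, 13.8 and 18.7 CPM in the selected cells of Dnmt1_KO 1, 2 and 3, below the 112 to 150 CPM of all 7 WT embryos (log2 fold change -2.71 ± 0.229 SE, edgeR adjusted p = 9.4e-07). In the Dnmt3a_KO embryos Dnmt3a lay between 10.3 and 15.1 CPM, below all WT embryos (31.1 to 59.4 CPM), though the log2 fold change of -1.45 did not pass the adjusted threshold (edgeR adjusted p = 0.094). Dnmt3b stood at 61.1 to 70.9 CPM in Dnmt3b_KO, within the WT range of 44.0 to 89.6 CPM. Dnmt3a in Dnmt3b_KO 11 and 12 stood at 16.9 and 7.91 CPM, near the Dnmt3a_KO embryos, and at 40.4 CPM in Dnmt3b_KO 1 with 2. Whether embryos 11 and 12 lacked Dnmt3b alone was not tested, and the Dnmt3b_KO results below rest on them in part. A 3′ tag outside the altered part of a gene does not check a null allele.

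In the Dnmt3b_KO embryos 30 genes were higher and 2 lower (0.262% and 0.0175% of those tested). Of the 30, 9 belong to the list of germline genes, 4 are Y-linked, 10 are X-linked and 16 are autosomal. As given above, Y-linked transcripts were present in 2 of the 3 Dnmt3b_KO embryos and at most 0.14 CPM in the 5 WT embryos of the fit. The 32 calls became 75 with a covariate for Y-linked reads, of which 22 were among the 32. In that fit only the Dnmt3b_KO group mixed embryos with and without Y-linked transcripts. The covariate therefore rested mainly on Dnmt3b_KO 12 against the rest of its group, and cannot separate sex from that embryo. The 32 calls became 4 in the 342 cells without markers of other tissues and 6 with 4 of the marker genes required. Slc25a31, a mitochondrial ADP/ATP carrier of sperm, had 26.2, 44.3 and 15.2 CPM in Dnmt3b_KO 11, 12 and 1 with 2. It was at 0 in 6 WT embryos and at 0.22 CPM, a single UMI, in WT 3. The groups did not overlap, and the ratio pooled over the embryos of the fit was 520 (counting interval 92.0 to 20690; log2 fold change 8.30 ± 0.634 SE, edgeR adjusted p = 3.1e-06). Sycp1 and Hormad1 encode proteins of the meiotic chromosome axis and its synapsis. Sycp1 had 4.22, 11.1 and 8.09 CPM and Hormad1 12.2, 25.3 and 7.58 CPM, with no UMI of either in any of the 7 WT embryos. Against the level that 3 UMIs over the 5 WT embryos of the fit would give, this was at least 46.9-fold higher for Sycp1 and at least 89.1-fold higher for Hormad1 (edgeR adjusted p = 0.00058 and 0.00022). Fitted fold changes of genes with so few WT counts depend on the prior count.

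Rpl39l, a testis copy of the ribosomal protein gene Rpl39 whose reads could be shared with that parent, had 40.5, 95.7 and 18.7 CPM. It was at or under 0.23 CPM in the 5 WT embryos of the fit, and at 4.59 CPM in WT 2, so that all 3 Dnmt3b_KO embryos still lay above every WT embryo (log2 fold change 8.47 ± 0.635 SE, edgeR adjusted p = 3.1e-06). Other genes that rose were Fkbp6, Gpat2, Tex19.1, Cyct, Tuba3a, Dazl, Syce1 and Hsf2bp, with parts in piRNA production, meiosis or sperm, and the X-linked Xlr3a, Xlr3b, Xlr3c, Xlr4b and Rhox6 of multicopy families, whose reads may be split between copies. Dazl, Syce1, Hsf2bp, Xlr3b, Xlr3c, Xlr4b and Rhox6 were picked out after their values were seen. Gm4779 (7.07 to 18.99 CPM, none in WT, at least 73.8-fold higher) and 8030474K03Rik (5.48 to 13.5 CPM) lie beside each other on the X chromosome on opposite strands.

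The 4 promoters below belong to germline genes that were called in Dnmt3b_KO and again in Dnmt1_KO, and they are shown because the CpG dinucleotides, the sites these enzymes methylate, stand in them in capitals. Each is the 250 bases before the start of the gene in RefSeq (GRCm38.p6), read 5′ to 3′ on the gene's own strand. Slc25a31 is at chr3:40708621-40708870 (+, 18 CpG), Rpl39l at chr16:10169978-10170227 (+, 12 CpG), Sycp1 at chr3:102936101-102936350 (-, 17 CpG) and Hormad1 at chr3:95559427-95559676 (+, 19 CpG).
Slc25a31: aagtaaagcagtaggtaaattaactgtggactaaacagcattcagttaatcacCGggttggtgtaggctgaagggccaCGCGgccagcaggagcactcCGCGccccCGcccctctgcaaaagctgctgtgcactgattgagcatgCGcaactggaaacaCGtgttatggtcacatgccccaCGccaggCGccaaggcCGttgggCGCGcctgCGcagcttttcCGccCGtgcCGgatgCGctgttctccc
Rpl39l: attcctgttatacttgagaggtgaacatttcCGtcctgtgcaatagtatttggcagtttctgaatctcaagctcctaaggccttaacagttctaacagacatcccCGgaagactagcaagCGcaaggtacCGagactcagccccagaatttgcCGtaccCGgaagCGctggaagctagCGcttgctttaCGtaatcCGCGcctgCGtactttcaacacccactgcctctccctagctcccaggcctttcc
Sycp1: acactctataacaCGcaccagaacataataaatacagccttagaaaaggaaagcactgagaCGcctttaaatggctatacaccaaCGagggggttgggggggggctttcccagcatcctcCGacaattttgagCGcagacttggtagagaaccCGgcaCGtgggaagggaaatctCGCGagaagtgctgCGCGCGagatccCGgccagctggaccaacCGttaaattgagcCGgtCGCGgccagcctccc
Hormad1: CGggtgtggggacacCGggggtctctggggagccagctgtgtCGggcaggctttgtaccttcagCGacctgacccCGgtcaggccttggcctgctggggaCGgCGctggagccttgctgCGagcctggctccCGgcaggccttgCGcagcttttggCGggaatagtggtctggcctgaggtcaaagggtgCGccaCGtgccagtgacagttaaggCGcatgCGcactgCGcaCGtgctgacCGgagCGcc

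Over all 27025 promoters of this length the median was 5 CpG (quartiles 2 and 16). The 27 genes of the germline list that were matched had a median of 15 CpG, and the 9 called in Dnmt3b_KO had a median of 17. The letters CACGTG, which read the same on both strands and are the E-box bound by MAX and MGA complexes, occurred in 12 of the 27 (44.4%) and in 5.93% of all promoters. The letters TCCCGC, on either strand, as in sites of E2F6, occurred in 10 of the 27 (37.0%) and in 16.7% of all. Slc25a31, Sycp1 and Hormad1 hold CACGTG, Hormad1 also holds TCCCGC, and Rpl39l holds neither. These are matches of letters in a window, and methylation was not measured here.

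**Figure D5:**
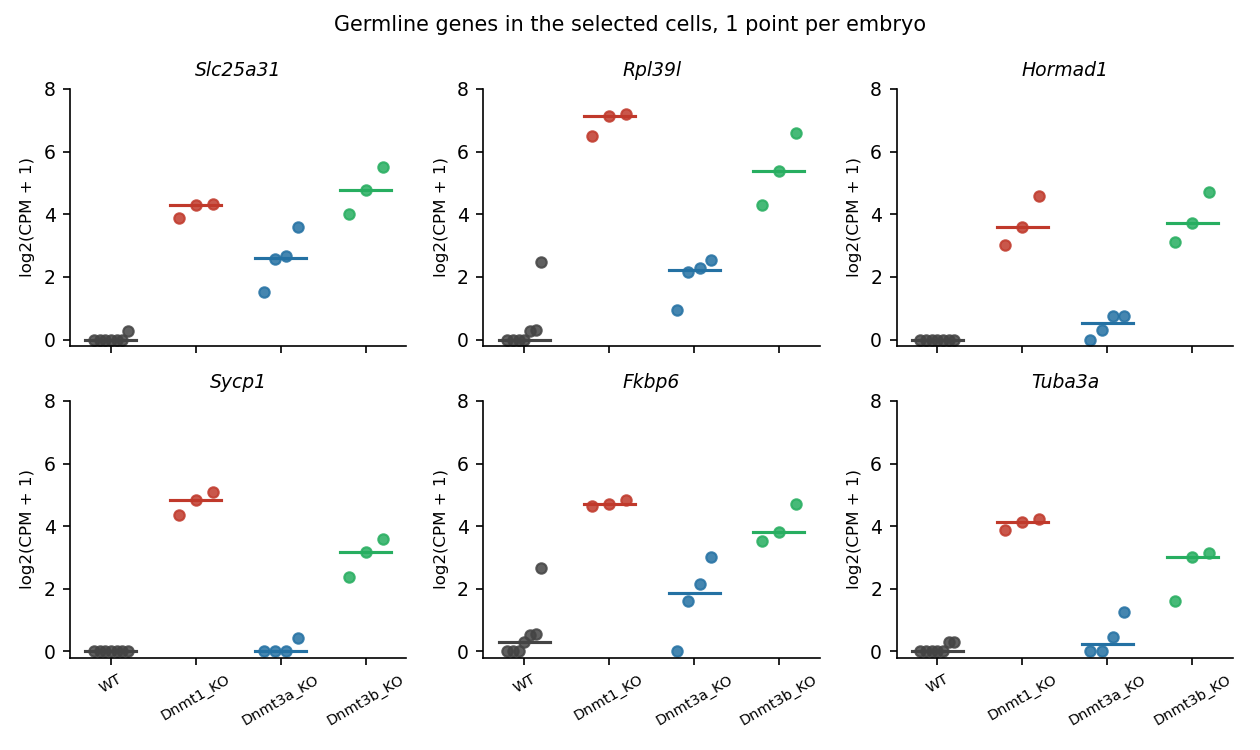
Level of germline genes in the selected cells, as log2(CPM + 1), 1 point per embryo (Dnmt3b_KO 1 and 2 summed) and a line at the group median. Dnmt1_KO and Dnmt3b_KO embryos lie above WT in each panel, and for Slc25a31 the 4 Dnmt3a_KO embryos (1.88 to 11.03 CPM) lie between.

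Of the 31 germline genes of the list, 23 passed the filter on low counts in this fit, and 9 of these were called higher in Dnmt3b_KO, against 0.262% of all genes tested. A silent gene can pass that filter only through the group in which it is expressed. The gene lists were also chosen with earlier results of these data known. Counts and summed levels by list, here and below, are therefore a description and no independent evidence. The summed level of the whole list, filtered or not, was 7.12 to 20.7 CPM in the 7 WT embryos, 33.0 to 61.7 CPM in Dnmt3a_KO, 117 to 509 CPM in Dnmt3b_KO and 374 to 446 CPM in Dnmt1_KO, so that no group overlapped WT. In the 342 cells without markers of other tissues, 2 germline genes were called in Dnmt3b_KO and 6 in Dnmt1_KO. In all, 4 of 8259 genes were called in the first of these fits and 74 of 7830 in the second. The same limit of the filter holds there.

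The 2 genes that fell in Dnmt3b_KO are neighbours on chromosome 2 of the mouse genome (GRCm38), Gm14226 at chr2:155018266-155027104 (+) and Ahcy at chr2:155059310-155074497 (-). Dnmt3b itself lies at chr2:153649450-153687730 (+). Gm14226, one of the genes that set the selected cells apart in WT, had 0.42, 0 and 0.51 CPM in the 3 Dnmt3b_KO embryos, 2 UMIs in all, against 52.0 to 109 CPM in WT (edgeR adjusted p = 0.00022). Ahcy, which removes the S-adenosylhomocysteine that methyltransferases leave behind, had 7.59, 11.1 and 10.1 CPM against 21.4 to 30.2 CPM (log2 fold change -1.54 ± 0.196 SE, edgeR adjusted p = 0.00056). Neither group overlapped WT for either gene. The fall was also seen outside the selected cells: in all other cells Gm14226 was at 0.05 to 0.08 CPM in Dnmt3b_KO against 8.08 to 15.7 CPM in WT, and the log2 fold change of Ahcy was -1.55. Whether the position beside the targeted gene has a part in these values was not tested.

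Dnmt3b_KO 12 differed from the other embryos of its group in several genes. Rhox5 stood at 206 CPM there against 10.1 and 7.58 CPM, Trap1a at 34.8 against 2.95 and 2.53 CPM, and the p53 targets Ccng1 and Phlda3 at 91.0 and 142 CPM against at most 16.2 and 34.9 CPM. It also had the most cardiomyocyte transcripts (1153 CPM summed over 6 genes, against 18.3 to 184 CPM in WT). With Dnmt3b_KO 11 and 12 left out, so that the summed library 1 with 2 stood alone and was assumed to vary like the other groups, edgeR called 9 of 12125 genes, 7 of them among the 32, and 2 of the 9 were germline genes of the list. Slc25a31 and Rpl39l were still called there (log2 fold changes 7.46 and 7.09), and Gm14226 and Ahcy were not (-7.19 and -1.45, edgeR adjusted p = 0.073 and 0.138).

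In the Dnmt3a_KO embryos 6 genes were higher and 2 lower (0.0524% and 0.0175% of those tested), and 2 of the 8 were none of the sex-linked transcripts named above. Slc25a31 had 4.90, 5.37, 1.88 and 11.03 CPM in Dnmt3a_KO 13, 14, 1 and 2, above all 7 WT embryos (pooled ratio 111, counting interval 19.3 to 4424; edgeR adjusted p = 0.0033). The noncoding transcript 1700048O20Rik had 14.7, 22.1, 9.42 and 16.5 CPM against 4.30 to 5.95 CPM in the 5 WT embryos of the fit, though WT 2, outside it, had 9.95 CPM (log2 fold change 1.57 ± 0.223 SE, edgeR adjusted p = 0.0046). Both genes were also called in Dnmt3b_KO and in Dnmt1_KO. Among the lists, 1 of 23 germline genes was called, and 13 had an unadjusted p under 0.05, against 5.79% of all genes. DESeq2 called 3 germline genes in the same samples. Without the embryo Dnmt3a_KO 13, Dnmt3a_KO 14 or WT 4 no gene was called by edgeR in this contrast (500, 820 and 528 genes at an unadjusted p under 0.05). With a covariate for Y-linked reads edgeR called 4 genes, 1 of them among the 8. Sex and genotype stay aligned in this contrast, so the covariate cannot separate them.

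The Dnmt1_KO comparison gave the most calls, 214 higher and 70 lower. Of the 214, 38 are X-linked, 1 is Y-linked and 175 are autosomal, and all 70 are autosomal. With a covariate for Y-linked reads 197 genes were called, 141 of them among the 284. Without Dnmt1_KO 1 it gave 143 and without Dnmt1_KO 3 110, with 1 embryo left in the group. The imprinted genes changed in both directions: of 39 tested, 13 were higher and 4 lower, against 2.03% and 0.663% of all genes. Grb10, a growth inhibitor, fell from 206 to 264 CPM in the WT embryos to 1.28, 2.77 and 0.72 CPM in Dnmt1_KO 1, 2 and 3, 5 UMIs in all (log2 fold change -7.98 ± 0.336 SE, edgeR adjusted p = 3.9e-11). Igf2, Cdkn1c and Igf2r fell with it. H19 rose to 1970, 913 and 976 CPM from 238 to 451 CPM, Peg3 to 1994, 1364 and 1238 CPM from 280 to 541 CPM, and Peg10 to 292, 208 and 187 CPM from 34.7 to 62.2 CPM. The groups did not overlap for any of these 4 genes. Igf2, Cdkn1c and Igf2r were picked out after their values were seen.

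Germline genes were called in Dnmt1_KO as well. Of the 31 of the list, 20 passed the filter on low counts, again in part through the group that expressed them, and 16 were called higher (2.03% of all genes tested). Sycp1 had 33.2, 27.7 and 19.6 CPM with no UMI in WT (edgeR adjusted p = 4.2e-06), and Rpl39l had 146, 88.6 and 139 CPM. All 5 tested genes of a list that the study had chosen as extraembryonic, partly on these embryos and so no independent evidence of its direction, were higher: Rhox5 (211, 88.6 and 150 CPM against 2.37 to 19.4), Trap1a, Xlr3a, Krt8 and Apoe. Krt8, a keratin of simple epithelia, stood at 890, 385 and 258 CPM against 73.5 to 228 CPM. Its log2 fold change was 2.05 in the selected cells and 0.43 in all other cells, a difference that was not tested.

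Hox genes were among those that fell. Of 26 Hox genes tested, 6 were called lower (Hoxa3, Hoxb3, Hoxb8, Hoxb9, Hoxc4 and Hoxc6) and none higher, against 0.663% of all genes called lower. Of the 26, 19 had an unadjusted edgeR p under 0.05, against 21.8% of all genes, and 1 had a log2 fold change above 0 (median -1.44). Hoxb9 stood at 12.8, 0 and 8.13 CPM in Dnmt1_KO 1, 2 and 3 against 39.8 to 140 CPM in WT, and Hoxb8 at 24.3, 0 and 11.004 CPM against 52.4 to 85.5 CPM. Summed over 39 Hox genes, the selected cells had 244 to 374 CPM in Dnmt1_KO and 766 to 1090.1 CPM in the 7 WT embryos. Etv4, a target of Fgf signalling, fell to 2.55, 0 and 4.31 CPM from 18.3 to 45.1 CPM, and Rdh10 to 14.04, 16.6 and 9.57 CPM from 26.5 to 40.4 CPM (edgeR adjusted p = 0.00051 and 0.003). In the 342 cells without markers of other tissues, 2 Hox genes were called lower, among 23 of 7830 genes called lower in all.

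No gene of the nephric lists passed the test. Of 9 duct genes, 6 were tested, and of 10 mesenchyme genes, 9, and edgeR called none of them in any comparison. In Dnmt1_KO the medians were -1.08 and -0.81 on the log2 scale, and 1 of the 6 duct genes and 4 of the 9 mesenchyme genes had an unadjusted p under 0.05, against 21.8% of all genes. DESeq2 called 2 mesenchyme genes lower there and no duct gene. Eya1 had 5.11, 2.77 and 1.67 CPM in Dnmt1_KO 1, 2 and 3 against 0 to 23.0 CPM in WT (edgeR adjusted p = 0.032). In Dnmt3a_KO and Dnmt3b_KO no gene of either list had an unadjusted edgeR p under 0.05, and DESeq2 called none. Emx2 and Ret each ran from 0 to over 20 CPM among the WT embryos alone, so that a difference between groups inside that spread was not detectable.

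Other markers moved with Dnmt1_KO beside these results. Gata6, a regulator of heart and endoderm formation, stood at 74.1, 108 and 64.1 CPM against 17.7 to 41.7 CPM (log2 fold change 1.30 ± 0.227 SE, edgeR adjusted p = 0.0015), and the muscle gene Tnni1 at 225, 74.7 and 70.1 CPM against 4.62 to 23.1 CPM. The 6 cardiomyocyte genes summed to 141 to 448 CPM in Dnmt1_KO and 18.3 to 184 CPM in WT, with 1 of 5 tested called higher. High values were not particular to Dnmt1_KO. Tnni1 ranged from 10.0 to 82.9 CPM in Dnmt3a_KO and from 27.3 to 136 CPM in Dnmt3b_KO. The cardiomyocyte genes summed to 34.6 to 776 CPM in Dnmt3a_KO and 78.3 to 1153 CPM in Dnmt3b_KO. The 7 erythroid genes summed to 10.2 to 59.3 CPM against 23.7 to 2211 CPM in all 7 WT embryos, and the 15 paraxial genes to 64.6 to 213 CPM against 145 to 281 CPM, both overlapping, with none called (medians -3.64 and -1.76; 4 of 5 and 3 of 11 with an unadjusted edgeR p under 0.05, against 21.8% of all genes). Of 13 p53 targets, 5 were higher (2.03% of all genes), among them Ccng1 (53.6 to 79.7 CPM against 3.83 to 22.2), Phlda3 and Trp53inp1, while none of 20 replication and mitosis genes and none of 20 housekeeping genes was called (3 and 7 with an unadjusted edgeR p under 0.05). The part of a different mix of cells, of depth or of stage in the Dnmt1_KO results was not tested. With the 342 cells alone, 74 genes were called in place of 284, from 13 cells of Dnmt1_KO 1 and 3.

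The same knockout effects were looked for in neighbouring mesoderm. In the paraxial cells edgeR called 380 of 13319 genes in Dnmt1_KO, and 17 and 80 of 13979 in Dnmt3a_KO and Dnmt3b_KO. In the lateral plate cells it called 1042 of 15740, and 39 and 140 of 16475. These classes held 4285 and 17665 cells against 719 selected cells, so the numbers of calls do not compare the size of the effects. Slc25a31 had a log2 fold change of 8.30 in the selected cells of Dnmt3b_KO, 7.50 in paraxial and 7.29 in lateral plate cells, and Grb10 one of -7.98, -5.02 and -6.39 in Dnmt1_KO. A test of the difference itself, with embryo as a block, called no gene for Dnmt3a_KO or Dnmt3b_KO against either class with edgeR (543 and 592 genes at an unadjusted p under 0.05 against paraxial cells, 822 and 815 against lateral plate cells). Such differences therefore could not be shown with these embryos, which is not evidence that the effects were equal.

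For Dnmt1_KO the test called 10 of 12401 genes against paraxial cells (0.0806%) and 98 of 15543 against lateral plate cells (0.631%), at 10 cells of both classes per embryo. Against paraxial cells, H19 had the higher fold change in the selected cells (difference in log2 fold change 1.23 ± 0.191 SE, edgeR adjusted p = 0.0041), as did Fn1, Csrp1, Sfmbt2, Klhl13, Ets1, Mesp1 and Cck. Gata6 and Lrig3 had the lower fold change in the selected cells (differences of -1.46 and -1.68). Gata6 is a gene of the lateral plate rule, and cells that passed both rules were left out of the paraxial cells. Its level in paraxial cells was thus partly set by that choice, and its difference is a description only. Against lateral plate cells, 94 of the 98 genes had the higher fold change in the selected cells. Among them were H19, Peg10, Plagl1 and Phlda2 of the imprinted list, the growth factor Bmp4, and the muscle genes Tnni1, Tnnt1 and Tpm1, and Tbx20, a regulator of heart formation. Apart from H19, Peg10, Gata6, Bmp4 and Tnni1, these genes were picked out after their values were seen. In the 342 cells without markers of other tissues, 2 genes were called against paraxial cells and 6 against lateral plate cells. Without Dnmt1_KO 1 the counts were 3 and 17, and without Dnmt1_KO 3 they were 10 and 14.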

How the data were processed

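The authors deposited for each library the raw counts of UMIs per gene and cell barcode, made with Cell Ranger 3.1.0 in 17 libraries and 5.0.0 in Dnmt3b_KO 12, and the reference of 4 of them (Dnmt3a_KO 13 and 1, Dnmt3b_KO 11 and WT 1) joined the human to the mouse genome. Human rows were left out. Cells with at least 3000 mouse UMIs were kept, from 39528957 to 263845667 mouse UMIs per library before that filter, and no column was left unused (0). The selected cells, the paraxial and the lateral plate cells were taken by counts of marker genes, and doublets were scored with scanpy 1.11.5 and, with a mitochondrial and ribosomal filter, left out only in an alternative. Erythroid cells had more than 10% globin UMIs. Members and gene lists were chosen with earlier results of these data known. Rian and Peg13 of the imprinted list are not analysed here.

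UMIs of the selected cells were summed per embryo and tested with edgeR 4.0.16 (R 4.3.3; filterByExpr, TMM, glmQLFit, glmQLFTest), all groups in 1 fit, with Benjamini-Hochberg adjustment. Where the text gives an edgeR p without saying so it is from this fit, and values per embryo are CPM with all UMIs of the selected cells as the total. Nothing in the labels says that embryos of a group came from separate litters, so the spread is that between these embryos. Intervals cover counting error only. Gene names follow a fixed rule: the genes of the cell rule, both nephric lists, the targeted genes, the 10 higher and 10 lower called genes with the smallest adjusted p per knockout without Y-linked genes, Xist and Tsix, up to 4 per other list by the smallest p, and the 15 leading genes of WT. Some genes that this rule names are not reported here. Others were picked after their values were seen. Shares were compared with exact permutation tests (scipy 1.17.1) on the log2 share, with 0.5 added to each count of selected cells. On simulated data for the Dnmt3a_KO comparison, over 11067 genes, 100 of 100 genes changed by 2 on the log2 scale and 41 of 100 changed by 1 were called, with 1 false call. The changed genes were drawn only from those with more than 10 expected UMIs in the smallest library. Recovery of genes with fewer UMIs was not measured. DESeq2 1.42.0, other normalization, filters, cell minimums, marker numbers, thinning, covariates for Y-linked reads and reference, and leaving out each library were the alternatives.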

Additional observations from a re-analysis of the deposited data

Results flagged for a closer look

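In a test for values that stand apart from their own group, 3 of 46 groups had such a value, where chance gives about 1 in 20. Dnmt3a stood at 10.3 CPM in the selected cells of Dnmt3a_KO 2, below the other 3 embryos of its group (14.4 to 15.1 CPM). Ret stood at 24.8 CPM in WT 1, against at most 6.99 CPM in the other WT embryos of the fit. Emx2 stood at 21.5 CPM in the same embryo, against at most 3.98 CPM in the others of the fit, while WT 2, which had too few selected cells for it, had 27.6 CPM.

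Reads on human genes, which the comparisons do not use, were found in the 4 libraries counted on the combined reference. The cells of Dnmt3b_KO 11 held 24810 human UMIs, against 23156 in WT 1.

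The test of the difference between cell classes called 10 genes whose Dnmt1_KO effect differed between the selected cells and paraxial cells, and 98 that differed between the selected cells and lateral plate cells. The first count lay between 3 and 18 when each library was left out, and the second between 14 and 144. The 14 were found without Dnmt1_KO 3, 17 without Dnmt1_KO 1 and 144 without WT 7.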

How the results depend on the processing

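The share of selected cells in Dnmt1_KO differed from WT by 0.0089 on the log2 scale with 2 of the 5 genes required. The difference was -1.87 (exact permutation p = 0.0167) after thinning to 10000 UMIs and -0.26 (exact permutation p = 0.55) after thinning to 3000. Both rest on 0.5 added to Dnmt1_KO counts that were all under 1. With each embryo left out it ran from -0.98 (without Dnmt1_KO 3) to 0.31 (without Dnmt1_KO 2). The difference of Dnmt3a_KO was 0.31 with 4 of the genes required, and that of Dnmt3b_KO -1.10 (without WT 2, exact permutation p = 0.0238) to -0.67 with each embryo left out. The 8 genes called in Dnmt3a_KO became 13 with DESeq2, 4 with a covariate for Y-linked reads (1 shared) and 2 with one for the reference. In the fit at 20 cells the Y-linked covariate rested mainly on Dnmt3b_KO 12. The 8 became 1 at 10 and 1 at 5 cells per embryo, 3 with 4 genes required and 14 with no filter on low counts. They became 1 with all libraries thinned to the smallest and 2 without cells holding En1, En2, Sox2, Epcam or Cldn6. With each library left out the count ran from 0 (without Dnmt3a_KO 13, Dnmt3a_KO 14 or WT 4) to 11 (without Dnmt3b_KO 1). Leaving out WT 3 gave 4, and leaving out Dnmt3a_KO 2, WT 6 or WT 7 gave 5. The 32 in Dnmt3b_KO became 58 with DESeq2 (32 shared), 75 with the Y-linked covariate (22 shared), 6 with 4 genes required, 16 at 50 cells, 73 with no filter, 21 with both groups alone in the fit, 4 after thinning, 4 without the cells with other markers and 9 without Dnmt3b_KO 11 and 12. The 284 in Dnmt1_KO became 18 with 4 genes required, 699 with no filter, 36 after thinning, 197 with the Y-linked covariate (141 shared), 74 without the cells with other markers, and 110 (without Dnmt1_KO 3) to 304 (without Dnmt3b_KO 12) with each library left out. With Dnmt1_KO 1 or 3 left out, the lone embryo was assumed to vary like the other groups. Genes whose Dnmt1_KO effect differed between cell classes numbered 2 (paraxial) and 6 (lateral plate) without the cells with other markers, and 3 to 18 and 14 to 144 with each embryo left out. The first gave 3 without Dnmt1_KO 1, 6 without WT 2 or WT 6 and 18 without WT 7, and the second 17 without Dnmt1_KO 1, 14 without Dnmt1_KO 3 and 61 without WT 4. With no filter the same test called 49 and 9 genes for Dnmt3a_KO and 39 and 21 for Dnmt3b_KO, where it had called none. With each library left out it called 0 to 2 and 0 to 4 for Dnmt3a_KO, the highest without WT 1, and 1 against lateral plate cells without Dnmt3a_KO 2 or Dnmt3b_KO 1. Thinning, leaving out cells or embryos and asking for more cells each leave fewer UMIs or embryos to test; the cause of the other changes was not tested. Same-numbered embryos are not known to be paired: their deviations from the group means correlated by 0.022, 0.016 and 0.042 (Dnmt1_KO) and -0.034 and 0.18 (Dnmt3a_KO). With the replicate number as a block the share difference of Dnmt1_KO was 0.20, and at 5 cells per embryo 218 genes were called in Dnmt1_KO and 2 in Dnmt3a_KO, against 231 and 0 (232 at an unadjusted edgeR p under 0.05) in the same embryos with no block. No paired analysis was possible for Dnmt3b_KO because, with libraries 1 and 2 summed, it shares 1 number with WT. The fits at 5 cells, those without Dnmt3b_KO 11 and 12, the Dnmt1_KO alternatives at 10 cells and the tests between classes without the cells with other markers were chosen after seeing the data. For the named genes, 115 of 4061 values lost a call in Dnmt1_KO, 23 of 4248 in Dnmt3a_KO and 66 of 4160 in Dnmt3b_KO, and no called value changed sign.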

Other observations

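Besides the germline and imprinted genes, 4 genes that the naming rule took in Dnmt1_KO and that are in none of the lists are given here. Noct, a regulator of NADP(H) levels named for its daily rhythm, stood at 72.8, 69.2 and 52.6 CPM in Dnmt1_KO 1, 2 and 3 against 9.18 to 17.2 CPM in WT (log2 fold change 2.34 ± 0.187 SE, edgeR). Fabp5, a fatty acid binding protein, stood at 138, 260 and 244 CPM against 610 to 758 CPM. Mfap2, a component of extracellular microfibrils, had 6.38, 8.30 and 5.74 CPM against 35.1 to 73.6 CPM, and Rab3ip, an activator of RAB8 in the traffic towards the cell surface and the cilium, had 10.2, 8.30 and 11.004 CPM against 39.7 to 58.0 CPM. In none of these 4 genes did a Dnmt1_KO embryo overlap a WT embryo. Outside the selected cells Noct stood at 82.9 to 118 CPM in Dnmt1_KO against 10.5 to 20.2 CPM in WT. Fabp5 stood there at 128 to 214 against 425 to 572 CPM, and Mfap2 at 1.69 to 5.61 against 23.9 to 36.9 CPM. Rab3ip stood there at 75.6, 67.9 and 29.1 CPM in Dnmt1_KO 1, 2 and 3, on both sides of the WT range of 40.7 to 65.5 CPM. The log2 fold change of Rab3ip was -2.02 here, -1.05 in paraxial cells, -1.24 in lateral plate cells and -0.03 in all other cells. The tests of the difference from paraxial and from lateral plate cells did not pass (-0.96 ± 0.266 SE and -0.79 ± 0.237 SE, edgeR adjusted p = 0.126 and 0.0899), and that from all other cells was not tested.

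Among the lists for other tissues, yolk sac endoderm genes such as Ttr and Apoa1 summed to 14.1 to 80.3 CPM in the Dnmt1_KO embryos and 9.50 to 516 CPM in the 7 WT embryos. Neural and midbrain-hindbrain genes summed to 443 to 570 CPM and 369 to 603 CPM. EdgeR called no gene of either list in Dnmt1_KO, with 4 of 6 and 4 of 10 at an unadjusted p under 0.05, against 21.8% of all genes. Of the 5 primed pluripotency genes that the study chose, 2 were tested in Dnmt1_KO and 1, Pim2, was called higher (2.03% of all genes).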
